A study of Mus musculus with 6 samples.

Results

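The fibulins Fbln1, Fbln2, Fbln5 and Fbln7 and the matricellular proteins Postn, Tnc, Sparc, Thbs1, Thbs4 and Spp1 were followed in the RNA of mouse tibialis anterior (TA) muscles. They were taken by gene symbol from a table of 41709 genes, and all 10 symbols were found. The table holds 6 muscles, 3 electroporated with a plasmid for wild-type Lrpprc (LrpprcWT, the control) and 3 with a plasmid for LrpprcP27A, in which proline 27 is replaced by alanine so that it resists dihydroxylation. Lrpprc is an RNA-binding protein of mitochondria that is also known as a transcriptional coactivator. The comparison asks which mRNAs differ when the variant is given in place of the wild-type protein. Both plasmids encode mouse Lrpprc with a Flag tag, driven by a CMV promoter, and were given to opposite legs of male C57BL/6J mice, which keep their own Lrpprc gene. Muscles were collected 14 days after electroporation. The sources used here name young and old mice and do not say which gave these muscles, and no muscle without plasmid is in the table.

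Fibulins are secreted glycoproteins that carry calcium-binding EGF-like repeats and link elastic fibres and basement membranes to other matrix proteins. Matricellular proteins are also secreted into the matrix, but they act mainly on how cells attach and respond to it and are known to rise when muscle is injured and rebuilt. In muscle they come largely from fibroblasts, tendon cells, vessel cells and macrophages rather than from the fibres.

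All 10 mRNAs had a lower mean with LrpprcP27A. Postn kept 10.9% of its LrpprcWT mean, Spp1 14.5%, Tnc 22.0% and Fbln1 31.0%. Fbln7, Thbs1 and Sparc kept 35.1%, 36.3% and 38.1%, and Thbs4, Fbln5 and Fbln2 were the least reduced at 50.4%, 51.1% and 53.7%. Levels are in TPM (transcript abundance scaled to a fixed library total), a gene's length-corrected share of a library, so that it also depends on what share the other genes take. Fold changes and tests are on the log2(TPM + 1) scale, where folds of weakly expressed genes come out too small. They come from limma over 11611 genes, those averaging 1 TPM or more, with Benjamini-Hochberg adjustment over those genes. At an adjusted p under 0.05 from limma, 9 of the 10 genes were lower, the exception being Thbs1, against 23.3% of all tested genes. None of the 10 was higher, against 1.34% of all tested genes. At an unadjusted p under 0.05, 0 were higher by limma and 0 by the Kruskal-Wallis test, against 301 and 407 of the 11611 tested genes. The median log2 fold change of the 10 genes was -1.32, and that of all tested genes was -0.32. In bulk muscle, fewer cells of a type and less RNA per cell cannot be told apart.

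The count of the unpaired fit rested on single libraries. Without the LrpprcWT library of replicate 3 it was 0 of 10 at an adjusted limma p under 0.05 (8 at an unadjusted p), against 0.129% of all tested genes. It was 4 without LrpprcWT replicate 1, 6 without LrpprcP27A replicate 2 and 5 without LrpprcP27A replicate 3, against 2.51%, 4.34% and 3.79% of all tested genes. It was 8 without LrpprcP27A replicate 1 and 10 without LrpprcWT replicate 2, against 14.5% and 59.5%. All these fits were unpaired, so the same-numbered library of the other group stayed in. With the replicate number as a block all 10 were lower, against 48.4% of all tested genes, and no library was left out under the block. With no filter on low values, and in a linear model without moderation, 0 of the 10 passed (9 and 6 at an unadjusted p), against 0.196% and 0.00861%, and by the Kruskal-Wallis test 0 passed (9 unadjusted), against 0% of all tested genes. Genes without overlap all had an adjusted Kruskal-Wallis p of 0.0969, so no gene could pass that test and its 0 says nothing about stability. The fold changes of the 10 genes stayed below 0 in all fits made.

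**Figure D1:**
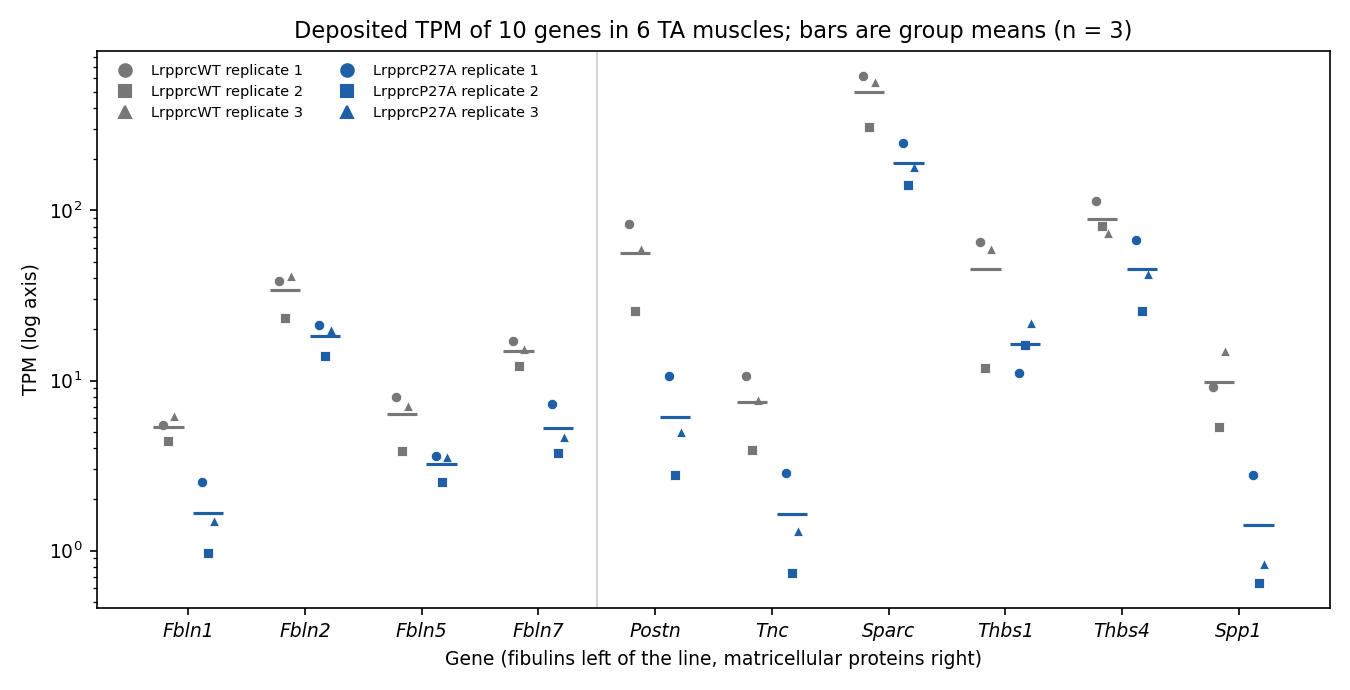
TPM on a log axis for each of the 10 genes in the 3 LrpprcWT muscles (grey) and the 3 LrpprcP27A muscles (blue), with marker shapes for the replicate number and bars for the group means. In 9 genes every blue point lies below every grey point, while for Thbs1 the LrpprcWT muscle of replicate 2, at 11.8 TPM, lies among the LrpprcP27A muscles.

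Short stretches before RefSeq transcription starts are shown for the 2 genes with the largest falls, Postn and Spp1, for Fbln7, the fibulin with the largest fall on the log2(TPM + 1) scale, and for Thbs4, where 2 copies of a motif overlap. Fbln1 kept less of its LrpprcWT mean than Fbln7, at 31.0% against 35.1%. The stretches are RefSeq sequences of build GRCm38.p6, 30 bases each, written along the gene's strand, with the motif in capitals. For Spp1, Fbln7 and Thbs4, part of the 100 bases before this RefSeq start lies within annotated GENCODE transcripts, and for Postn it does not. Whether the printed bases themselves do was not examined. The capitals mark a TATA box for Postn, a CCAAT box read on the other strand for Spp1, the same box and an MCAT element for Fbln7, and 2 overlapping MCAT elements for Thbs4.
Postn, chr3:54361067-54361096, plus strand: acagcccagagctaTATAAActcagctctc
Spp1, chr5:104435051-104435080, plus strand: cactccacctcctgATTGGtggagactgtc
Fbln7, chr2:128863867-128863896, plus strand: ggATTGGgcgagctcccaggcgCATTCCag
Thbs4, chr13:92794996-92795025, minus strand: ctgtccacctCATTCCATTCCgtctggtct

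The search covered the 250 bases before each RefSeq start on both strands, in 14 windows of 9 of the genes. Thbs1 had no entry. TATAAA, the core of the TATA box, was found for Postn, Tnc and Spp1, in 4 of the 14 windows, against 12.4% of the 32851 windows of all genes. The match lay 26 bases before the start for Postn, 126 or 205 for the windows of Tnc and 211 for Spp1. The windows of Tnc overlap and hold the same TATAAA and the same GGGCGG, so each site counts more than once. CATTCC, the MCAT element bound by TEAD factors, was found for Fbln7 and Thbs4, in 2 of the 14 windows, against 12.6% of all windows. The CCAAT box was found for Fbln5, Fbln7 and Spp1, in 3 of the 14 windows, against 33.8%. The GC box, GGGCGG, was found for Fbln1, Fbln2, Fbln5, Tnc and Thbs4, in 6 of the 14 windows, against 32.7%. No window of the 9 genes held the AP-1 site TGANTCA, which 6.75% of all windows held. None of the 5 motifs was shared by all 9 genes. These matches describe letters in the windows and not the binding of any factor.

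Fbln7 encodes a fibulin that supports cell adhesion and lies on chromosome 2 of GRCm39 (128704901 to 128738971, plus strand). Its levels were 17.1, 12.2 and 15.4 TPM in the LrpprcWT libraries of replicates 1, 2 and 3 and 7.29, 3.73 and 4.68 TPM in the LrpprcP27A libraries. Fbln7 had the tightest LrpprcWT values of the 10 genes, with a coefficient of variation of 16.8%. The log2 fold change was -1.38 ± 0.22 (SE, limma adjusted p = 0.0129). Fbln1, a fibulin of basement membranes and elastic fibres on chromosome 15 (85090150 to 85170737, plus strand), was the least abundant fibulin. It had 5.47, 4.39 and 6.22 TPM with LrpprcWT and 2.52, 0.969 and 1.502 TPM with LrpprcP27A. The groups of Fbln1 were apart by more than the spread within either of them, with a log2 fold change of -1.29 ± 0.22 (SE, limma adjusted p = 0.0154).

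Fbln2 and Fbln5 fell less. Fbln2 binds nidogen and fibronectin in vessel walls and basement membranes and lies on chromosome 6 (91189437 to 91249522, plus strand). It was the most abundant fibulin, with 38.2, 23.3 and 40.9 TPM in the LrpprcWT muscles and 21.3, 13.9 and 19.8 TPM in the LrpprcP27A muscles. The gap between its groups was narrow, since the lowest LrpprcWT value and the highest LrpprcP27A value came within a few TPM of each other. Its log2 fold change was -0.84 ± 0.23 (SE, limma adjusted p = 0.0352). Fbln5, which is needed for the assembly of elastic fibres, lies on chromosome 12 (101712556 to 101785429, minus strand). Fbln5 measured 7.998, 3.86 and 7.11 TPM with LrpprcWT against 3.60, 2.54 and 3.56 TPM with LrpprcP27A. Here too the LrpprcWT muscle of replicate 2 was close to the LrpprcP27A muscles. The log2 fold change was -0.75 ± 0.24 (SE), and its limma adjusted p of 0.0492 lay just under the threshold.

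Postn encodes periostin, which binds collagens and integrins and promotes collagen cross-linking, on chromosome 3 (54268501 to 54298471, plus strand). It had 83.3, 25.7 and 59.1 TPM in the LrpprcWT libraries and 10.6, 2.77 and 4.99 TPM in the LrpprcP27A libraries. Although the LrpprcWT libraries differed widely, the lowest of them was still above the highest LrpprcP27A library. The log2 fold change of -3.004 ± 0.47 (SE, limma adjusted p = 0.0126) was the largest of the 10 genes. Spp1 encodes osteopontin, an integrin and CD44 ligand that macrophages make in damaged muscle, on chromosome 5 (104582165 to 104589235, plus strand). Its values were 9.185, 5.36 and 14.8 TPM with LrpprcWT and 2.77, 0.650 and 0.833 TPM with LrpprcP27A. Spp1 had a log2 fold change of -2.16 ± 0.38 (SE, limma adjusted p = 0.0158). Its relative spread was wider with LrpprcP27A (coefficient of variation 82.9%) than with LrpprcWT (48.7%). Tnc encodes tenascin C, a large glycoprotein of tendon and of regenerating muscle, on chromosome 4 (63878014 to 63965443, minus strand). Levels of Tnc were 10.7, 3.92 and 7.71 TPM in LrpprcWT muscles and 2.85, 0.741 and 1.31 TPM in LrpprcP27A muscles. No LrpprcP27A muscle reached the lowest LrpprcWT muscle, and the log2 fold change was -1.67 ± 0.36 (SE, limma adjusted p = 0.0220).

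Sparc encodes a collagen-binding protein that is needed for collagen to be laid down in the matrix, and was by far the most abundant of the 10 mRNAs. The gene lies on chromosome 11 (55285317 to 55314067, minus strand). It had 616.8, 307.8 and 569.4 TPM with LrpprcWT and 248.3, 142.0 and 179.3 TPM with LrpprcP27A. The groups did not overlap, and the log2 fold change was -1.36 ± 0.28 (SE, limma adjusted p = 0.0199). Thbs4, a thrombospondin of tendon and muscle matrix that helps fibres hold to it, lies on chromosome 13 (92888095 to 92931501, minus strand). Thbs4 had 113.8, 80.9 and 73.5 TPM in LrpprcWT muscles and 67.1, 25.6 and 42.6 TPM in LrpprcP27A muscles. The highest LrpprcP27A muscle of Thbs4 lay just under the lowest LrpprcWT muscle, and the log2 fold change was -1.05 ± 0.31 (SE, limma adjusted p = 0.0415).

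Thbs1 was the exception. It encodes thrombospondin 1, a ligand of CD36 and CD47 that can activate latent TGF-beta, on chromosome 2 (117941974 to 117957616, plus strand). It had 65.03, 11.8 and 59.2 TPM in the LrpprcWT libraries and 11.2, 16.2 and 21.9 TPM in the LrpprcP27A libraries. The LrpprcWT library of replicate 2 was below the LrpprcP27A libraries of replicates 2 and 3, so the groups overlapped. The log2 fold change of -1.13 had a standard error of 0.56 and a 95% interval from -2.40 to 0.13 (limma adjusted p = 0.137, but 0.0047 once the replicate number was a block). The adjusted limma p was 0.0034 and the log2 fold change -1.90 without the LrpprcWT library of replicate 2. With each other library left out, the largest adjusted limma p of Thbs1 was 0.402. The groups did not overlap in 9 of the 10 genes, as in 47.6% of all tested genes with lower values throughout. An exact permutation test of each gene alone, two-sided, gave p = 0.3 for Thbs1 and p = 0.1 for each of the other 9 genes, the smallest p that 3 against 3 allow.

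Exons of 4 of the genes overlap other annotated genes, and the kit used does not mark strand. Mean levels of these neighbours over the 6 libraries were 0.002 TPM for 8030451A03Rik (opposite Tnc), 0.010 TPM for Gm13986 and 0 for Gm29233 (both opposite Thbs1), and 0 for Gm42793 (on the strand of Spp1). Gm31095, opposite Postn, was not analysed here.

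The order of the levels in LrpprcWT muscles ran from Sparc through Thbs4, Postn, Thbs1, Fbln2, Fbln7, Spp1, Tnc and Fbln5 to Fbln1, with means from 498.0 ± 166 (SD, n = 3) to 5.36 ± 0.918 TPM (SD, n = 3). Only the steps from Sparc to Thbs4 and from Fbln2 to Fbln7 had ranges that did not overlap, so the other neighbours were not separated beyond their spread. With LrpprcP27A the range ran from 189.9 ± 53.9 TPM (SD, n = 3) for Sparc to 1.42 ± 1.18 TPM (SD, n = 3) for Spp1.

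Most of the 10 genes had the same lowest muscle in each group. Among the LrpprcWT muscles, replicate 2 was lowest in 9 of the 10 genes, all but Thbs4, while replicate 1 was highest in 7 and replicate 3 in 3 (Fbln1, Fbln2 and Spp1). Among the LrpprcP27A muscles, replicate 2 was lowest and replicate 1 highest in 9 genes, all but Thbs1. Replicate 2 also had the lowest median-of-ratios factor over all genes in each group, at 0.981 against 1.27 and 1.28 with LrpprcWT and at 0.831 against 0.896 and 0.887 with LrpprcP27A, and the part of this in the order was not tested. The 2 libraries of a number are from opposite legs of a mouse if the number marks the mouse. Within these pairs, 9 genes were lower with LrpprcP27A in 3 of 3 pairs, as were 70.1% of all tested genes. The pairs differed little for Postn, by -2.86, -2.82 and -3.33 on the log2(TPM + 1) scale, and for Fbln2, by -0.81, -0.71 and -1.01. They differed widely for Thbs1, by -2.44, 0.43 and -1.39, and for Spp1, by -1.43, -1.95 and -3.11. Thbs1 was thus higher with LrpprcP27A in the pair of replicate 2, where the other 9 genes were lower.

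**Figure D2:**
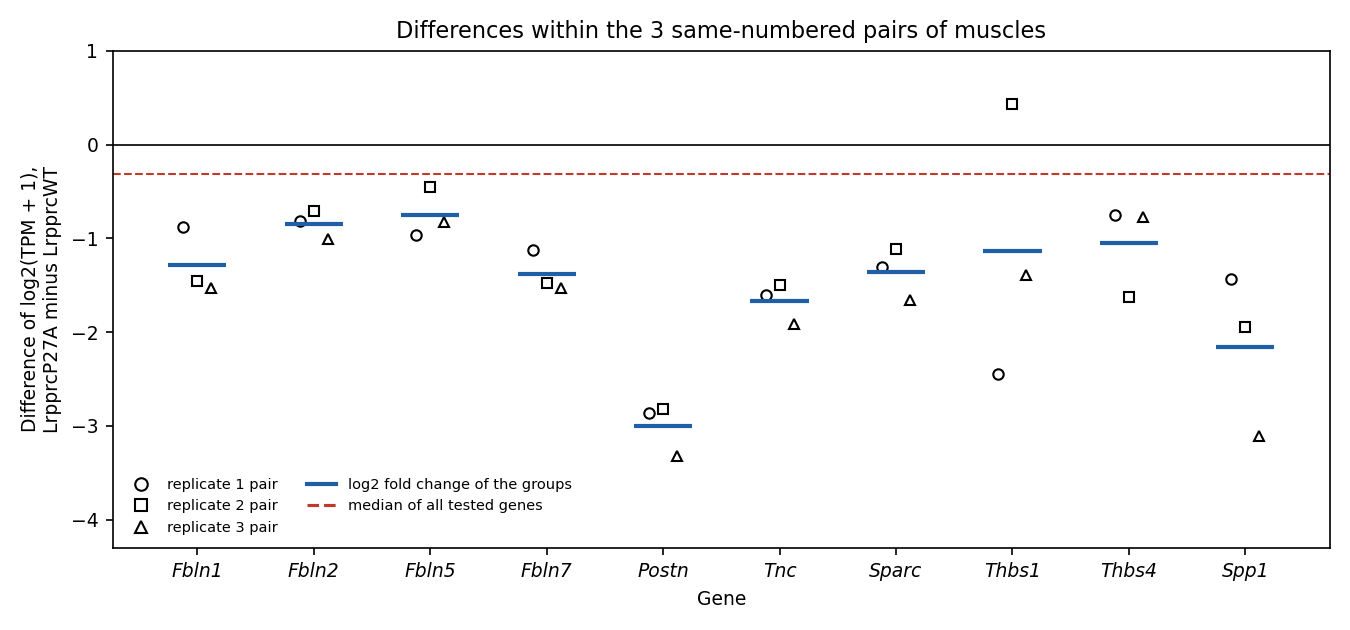
Difference of log2(TPM + 1) between the LrpprcP27A and LrpprcWT muscles of the same replicate number for each gene (open markers), with the log2 fold change of the groups as a blue bar and the median of all tested genes, -0.32, as a dashed line. The 3 pairs of Postn lie between -2.82 and -3.33, and the pair of replicate 2 is above 0 for Thbs1.

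Most genes of these muscles had lower TPM with LrpprcP27A (87.99% of those tested had a log2 fold change below 0), so the genes were also examined after other scalings of the libraries. Median-of-ratios scaling moved the median of all genes from -0.32 to 0.036 and quantile normalization moved it to 0.038. Rescaling after leaving out 113 genes of the mitochondrial genome and of ribosomal RNA moved it to -0.18. All 10 genes stayed below 0 and below the median of all genes under each of these scalings. The median log2 fold change of the 10 genes was -0.96 under each of median-of-ratios scaling and quantile normalization. Under median-of-ratios scaling 6 of the 10 were lower at an adjusted limma p under 0.05 (Fbln1, Fbln7, Postn, Tnc, Sparc and Spp1), against 5.81% of all tested genes. Under quantile normalization the number was 5 against 4.46%, and under the rescaling it was 4 against 5.50%. Fbln2 had log2 fold changes of -0.44, -0.52 and -0.67 under median-of-ratios scaling, quantile normalization and the rescaling, with adjusted limma p of 0.105, 0.0927 and 0.0894. In the same order, Fbln5 had -0.40, -0.35 and -0.65, with adjusted p from limma of 0.130, 0.170 and 0.117. Thbs4 had -0.63, -0.79 and -0.87, with adjusted p from limma of 0.191, 0.154 and 0.135. Tnc had -1.27 under quantile normalization and -1.73 under the rescaling, with adjusted p from limma of 0.0506 and 0.0533. Sparc had -1.17 under the rescaling, with an adjusted p from limma of 0.0504. With the replicate block and median-of-ratios scaling together, 8 of the 10 were lower, all but Thbs1 and Thbs4, against 14.1% of all tested genes.

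**Figure D3:**
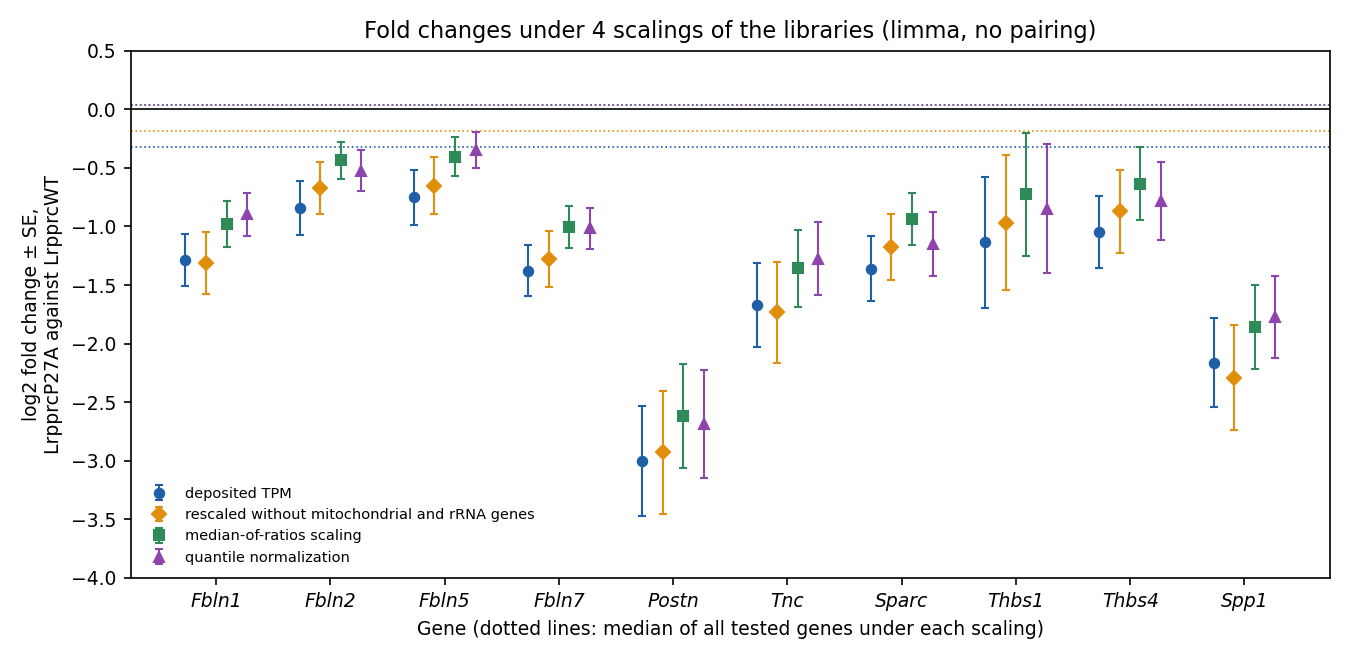
Log2 fold change with its standard error for each gene under the deposited TPM, the rescaling without mitochondrial and ribosomal RNA genes, median-of-ratios scaling and quantile normalization (limma without pairing), with dotted lines for the median of all tested genes under each. All points lie below 0, from -0.35 for Fbln5 under quantile normalization to -3.004 for Postn on the deposited scale.

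Relatives and partners of the 10 genes were examined as a list of 46 genes, of which 37 were tested. At an adjusted limma p under 0.05, 23 of the 37 were lower and 0 were higher. At an unadjusted p under 0.05, 1 was higher by limma and 0 by the Kruskal-Wallis test, against 301 and 407 of the 11611 tested genes. The background at an adjusted limma p under 0.05 is 23.3% lower and 1.34% higher of all tested genes. The median log2 fold change of the 37 was -0.99. Without the LrpprcWT library of replicate 3, 0 of the 37 were lower at an adjusted limma p under 0.05 (25 at an unadjusted p), against 0.129% of all tested genes, and without LrpprcWT replicate 1 and LrpprcP27A replicates 2 and 3 they were 4, 11 and 9, against 2.51%, 4.34% and 3.79%. Under median-of-ratios scaling 14 were lower, against 5.81%, and 1 was higher, the integrin subunit gene Itga4, against 6.83%. With the block 1 was higher, against 2.69%, with quantile normalization 1, against 4.25%, and with the block and median-of-ratios scaling 2, against 17.2%.

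Genes of the elastic fibre, to which Fbln1, Fbln2 and Fbln5 bind, fell in 8 of the 9 tested, against 23.3% of all tested genes. The groups of all 9 were apart, as in 47.6% of all tested genes with lower values throughout. The elastic fibre genes with the largest falls on the log2(TPM + 1) scale were Mfap4, Mfap2 and Eln. Mfap4, a microfibril-associated protein, went from 39.2 ± 15.1 to 4.26 ± 2.89 TPM (SD, n = 3), with a log2 fold change of -2.99 (limma, adjusted p = 0.0111). Mfap2, of the microfibril itself, and Eln, elastin, had log2 fold changes of -2.06 and -1.84 (limma, adjusted p = 0.0126 and 0.0168). The other thrombospondins fell in 3 of 3, namely Thbs3 (-1.77), Thbs2 (-1.39) and Comp (-1.22), with adjusted limma p of 0.0163, 0.0184 and 0.0378. Thbs1 was the one thrombospondin of the 5 that did not pass unpaired on the deposited scale. Comp, with an adjusted limma p of 0.123, and Thbs4 also did not pass under median-of-ratios scaling. With the replicate block all 5 thrombospondins were lower, against 48.4% of all tested genes.

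Of the other fibulins, Efemp2, also known as fibulin 4, fell by 0.78 on the log2 scale (limma, adjusted p = 0.0280). The other 2 tested did not pass unpaired and went in opposite directions. Hmcn2 had a log2 fold change of -0.95 (limma adjusted p 0.0548 unpaired and 2.24e-05 with the block). Efemp1 was higher, with 0.27 (limma adjusted p 0.361 unpaired and 0.140 with the block). In the family of Sparc 1 of 4 fell, namely Fstl1, a secreted follistatin-like protein, with a log2 fold change of -1.74 (limma, adjusted p = 0.0202). Tgfbi, the paralog of Postn, fell by 0.87 on the log2 scale (limma, adjusted p = 0.0271). Tnxb was the one other tenascin tested and had 18.7 ± 7.58 TPM with LrpprcWT and 11.8 ± 3.90 TPM with LrpprcP27A (SD, n = 3), where limma gave an adjusted p of 0.181 unpaired and of 0.00112 with the block. In the CCN family of matricellular proteins 2 of 5 fell, Ccn3 and Ccn4, by 1.35 and 1.02 on the log2 scale (limma, adjusted p = 0.0202 and 0.0265). With the block all 5 were lower, against 48.4% of all tested genes. Ccn2, an integrin-binding member of that family, had the lowest log2 fold change of the 5, -1.58, with overlapping groups, and its limma adjusted p was 0.0678 unpaired and 3.80e-06 with the block.

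Receptors of these proteins fell in 7 of the 11 tested, against 23.3% of all tested genes. Under median-of-ratios scaling 2 of the 11 were lower and 1 was higher, against 5.81% and 6.83%. Sdc4 then had an adjusted limma p of 0.0828. Among the receptors, Cd44, a receptor of osteopontin and hyaluronan, had the largest fall on the log2(TPM + 1) scale, with a log2 fold change of -1.44 (limma, adjusted p = 0.0247). It was followed on that scale by Itga9, an integrin subunit that binds osteopontin and tenascin C, and Sdc4, a syndecan, with -1.01 and -0.99 (limma, adjusted p = 0.0247 and 0.0332).

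**Figure D4:**
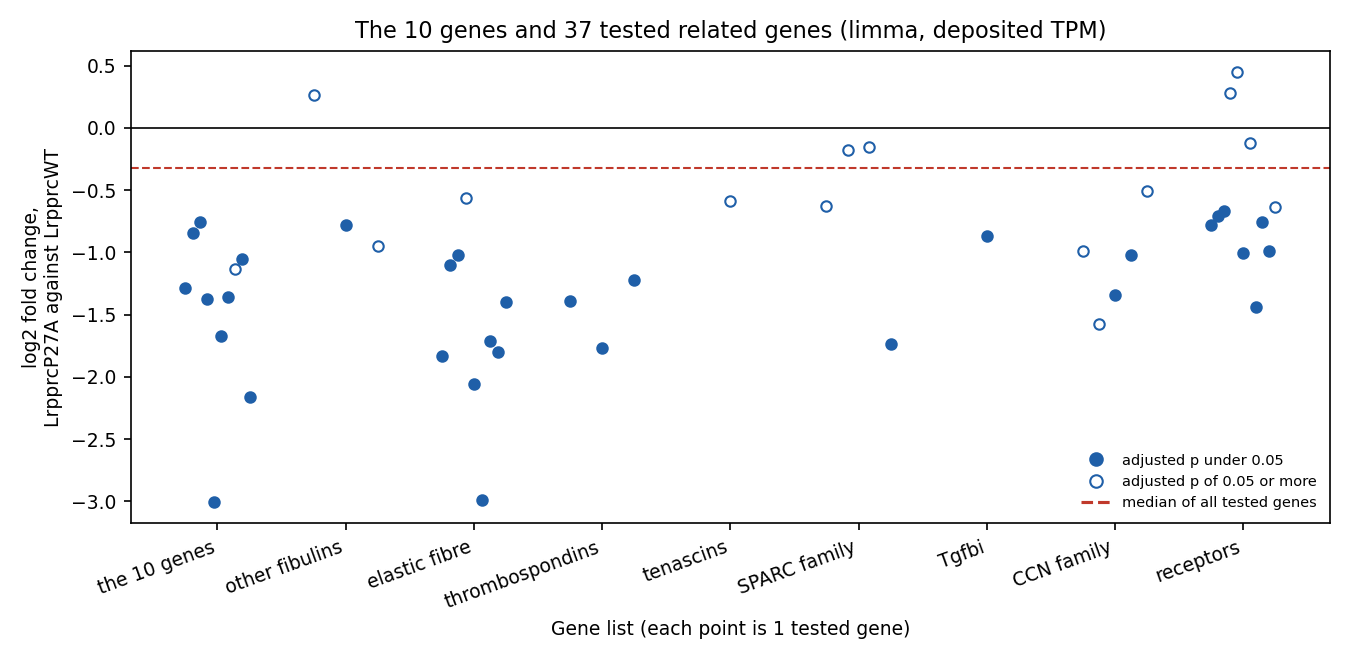
Log2 fold change of LrpprcP27A against LrpprcWT (deposited TPM, limma) for the 10 genes and for the 37 tested relatives and partners by list. Filled points have an adjusted p under 0.05 and open points do not, and the dashed line is the median of all tested genes, -0.32. Elastic fibre genes lie between -0.56 and -2.99, and 3 genes lie above 0, all of them open.

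Markers of some other cell types were also lower with LrpprcP27A. The 8 fibroblast markers, with none at 0, summed to between 923 and 1521 TPM in LrpprcWT muscles and between 275 and 552 TPM in LrpprcP27A muscles. At an adjusted limma p under 0.05, 6 of 8 were lower, against 23.3% of all tested genes. Under median-of-ratios scaling 4 of 8 were lower, against 5.81%. Most of the sum came from Col1a1 and Col3a1 (mean 423 and 512 of 1287.5 TPM with LrpprcWT), which kept 23.26% and 23.4% of their LrpprcWT means. Lum and Dpt kept 35.8% and 36.7%, and Pdgfra, Dcn, Pi16 and Ly6a kept 55.3%, 62.1%, 59.5% and 65.2%. The 8 macrophage markers, with none at 0, summed to between 308 and 616 TPM and between 104 and 212 TPM. Of these, 7 of the 7 tested were lower, against 23.3% of all tested genes, or 3 of 7 under median-of-ratios scaling, against 5.81%. The eighth marker of that list, Cd163, was below the filter and went the other way, with 0.459 ± 0.134 TPM in LrpprcWT muscles and 1.19 ± 0.434 TPM in LrpprcP27A muscles (SD, n = 3), without overlap of the groups. Endothelial markers were lower in 2 of 5 and mural cell markers in 2 of 5, against 23.3% of all tested genes. Their sums kept 59.8% and 74.4% of the LrpprcWT mean. The counts of these lists were 0 of 5 and 0 of 5 under median-of-ratios scaling, against 5.81%. With the replicate block they were 5 of 5 and 4 of 5, against 48.4%. Satellite cell markers were lower in 3 of 4, against 23.3% of all tested genes, and kept 69.1%. Markers of tendon cells were lower in 0 of 5, Schwann cell markers in 0 of 3, platelet markers in 0 of 2 and adipocyte markers in 0 of 2 by limma, against the same 23.3%. At an unadjusted limma p under 0.05 these were 0, 0, 1 and 0. The tendon cell sum ran from 21.2 to 61.0 TPM in LrpprcWT muscles and from 18.7 to 61.2 TPM in LrpprcP27A muscles. Muscle fibre markers kept 93.2% of their LrpprcWT sum, which ran from 134600 to 148450 TPM, so the tissue carried the markers of its label. Of its 8 markers 1 was lower, against 23.3% of all tested genes, namely the myosin light chain gene Mylpf (66.4% of the LrpprcWT mean, limma adjusted p = 0.0168). With the block 2 were lower and 1 higher, against 48.4% and 2.69%. The part of these cell types in the differences of the 10 genes was not tested.

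**Figure D5:**
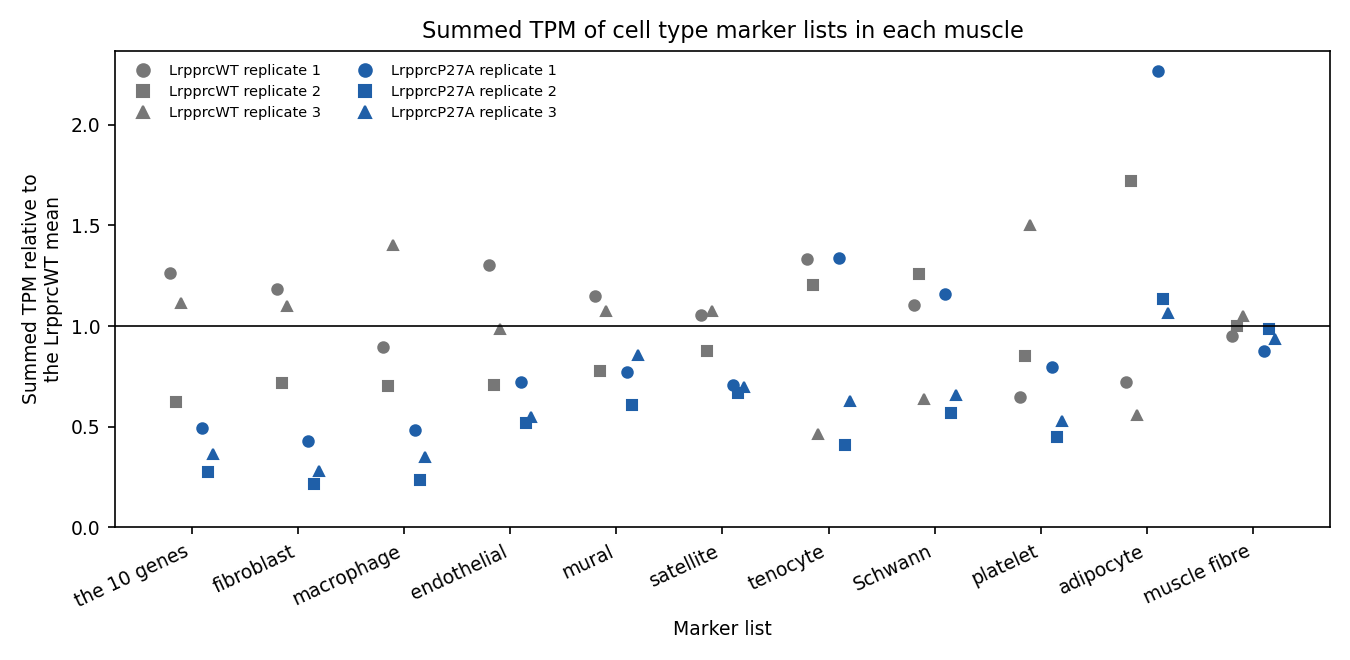
Summed TPM of the 10 genes and of each marker list in each muscle, divided by the mean of the LrpprcWT muscles (line at 1). The sums of the 10 genes, of fibroblast markers and of macrophage markers lie lower in every LrpprcP27A muscle than in every LrpprcWT muscle, and the sums of tendon cell and Schwann cell markers overlap.

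The ratio of each gene to the fibroblast marker sum in the same library does not depend on any scaling by a single factor per library, though quantile normalization would change it. Postn was 5.47%, 2.78% and 4.16% of that sum in the LrpprcWT libraries and 1.92%, 1.01% and 1.39% in the LrpprcP27A libraries. The log2 ratio of Postn was thus lower by -1.52 with LrpprcP27A, and by -2.27 with the collagen genes Col1a1 and Col3a1 left out of the sum. Spp1 had differences of -1.25 and -1.99 for the same 2 sums. Postn and Spp1 did not overlap between the groups on this ratio. The two-sided exact permutation p was 0.1 for each, the smallest possible, and 0.167 after Benjamini-Hochberg adjustment over the 10 genes. The share of all tested genes without overlap on this ratio was not determined. Tnc had a difference of -0.56 with overlapping groups, and -1.30 without the collagens. Fbln2 and Fbln5 also did not overlap but were higher relative to the marker sum, by 0.85 and 0.81 (exact permutation p = 0.1 for each, 0.167 adjusted). Without the collagens they were higher by 0.11 and 0.066 (exact permutation p = 0.4 and 0.8). The ratio of Fbln1 differed by -0.054 with the full sum and by -0.80 without the collagens. Those of Fbln7, Sparc, Thbs1 and Thbs4 were above 0 with the full sum, at 0.18, 0.36, 0.56 and 0.66, and below 0 without the collagens, at -0.57, -0.38, -0.19 and -0.086. With the full sum, Sparc and Thbs4 were higher without overlap of the groups (exact permutation p = 0.1 for each, 0.167 adjusted).

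The genes whose log2(TPM + 1) followed Fbln7 most closely over the 6 libraries were Rarg, Gm17396, Ptms, Fhit and Col1a1, with Pearson's r from 0.997 to 0.999. Among those closest to Sparc were Cd83, Cfl1, Tubb2b and Add1. An r above 0.95 was reached by 958 other tested genes for Fbln7 and by 2325 for Sparc. The libraries fall into 2 groups, and the difference between the groups enters each r.

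As a check of the plasmids, Lrpprc itself measured from 35.1 to 75.2 TPM in LrpprcWT muscles and from 26.0 to 29.7 TPM in LrpprcP27A muscles. The LrpprcP27A mean was 56.1% of the LrpprcWT mean, without overlap and lower in 3 of 3 pairs, and the limma adjusted p was 0.0652 unpaired and 0.00243 with the block. By quantitative PCR, the study reports similar Lrpprc mRNA levels after both plasmids in young mice and no significant difference in old mice. The part of the Lrpprc difference in the 10 genes was not tested. TPM does not separate plasmid transcripts from those of the mouse gene.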

How the data were processed

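RNA-seq was done on 6 TA muscles, 3 per group. After trimming, the authors mapped paired-end reads to GRCm39 using CLC Genomics Workbench. The deposited values are TPM per gene, without further normalization between libraries. Each library sums to 1000000, so depth is unknown and no counting error can be given.

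Here log2(TPM + 1) was compared between groups with limma 3.58.1 in R 4.3.3 (empirical Bayes with trend, Benjamini-Hochberg adjustment) for 11611 genes (average of 1 TPM or more), after a test on simulated data. The 10 genes and all lists were chosen with earlier results of these data known. Related genes are named by the largest fold changes among those called, at most 3 per list, or by the highest level where none was called. Itga4, Ccn2, Cd163, Mylpf, Efemp1 and Hmcn2 were named after their values were seen. For Fbln7 and Sparc the genes with the highest Pearson correlation are named, 1 of which is not reported here.

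Same-numbered libraries were also treated as pairs. The study describes contralateral muscles, and within-group deviations over all tested genes had correlations of 0.36, 0.53 and 0.36 within the 3 pairs. Between other libraries they were at most 0.0040. Deviations of a gene sum to 0 within each group, so positive values within the pairs push the others down. The low values between other libraries are therefore not separate evidence of pairing. Nothing states outright that the number is the mouse.

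Alternatives were another pseudocount (0.1), no filter, a filter at 5 TPM, limma without the trend, no moderation, the Kruskal-Wallis test of the study's methods, the replicate block, the block under median-of-ratios scaling, 3 scalings, and each library left out. Positions are from GENCODE for GRCm39, and promoter sequences from RefSeq for GRCm38.p6.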

Additional observations from a re-analysis of the deposited data

How the results depend on the processing

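Of 167 values of the 10 genes over 17 alternatives, 0 changed sign, 103 kept their side of the threshold, 62 lost it and 2 gained it. Fbln1, Fbln5 and Tnc had no value with a mean TPM of at least 5, and Thbs1 gained its call only with the replicate block and without LrpprcWT replicate 2. The causes of the lost calls were not tested.

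At an adjusted p under 0.05, 9 of the 10 genes, 23 of 37 relatives and 2705 of all genes were lower (156 higher). No filter gave 0, 0 and 42 lower (9, 29 and 6671 unadjusted) and 9 higher. A mean TPM of at least 5 gave 1560 lower. No moderation gave 0, 0 and 1 lower and 0 higher (6, 19, 3839 and 284 unadjusted). The Kruskal-Wallis test gave 0, 0 and 0 lower and 0 higher (9, 25, 5530 and 407 unadjusted). Median-of-ratios scaling gave 14 relatives and 675 of all genes lower, and 793 higher. Quantile normalization gave 5, 11 and 518 lower, and 493 higher. The rescaling gave 4, 9 and 700 lower. The block gave 5619 lower and 312 higher on the deposited scale and 1636 and 1995 after median-of-ratios scaling. On the deposited scale it changed no call of the 10 genes but that of Thbs1. Higher relatives numbered 1 under quantile normalization, 1 with the block, 1 by median-of-ratios scaling, and 2 when the block and median-of-ratios scaling were joined. With each library left out of the unpaired fit, 0 to 10 of the 10 genes and 0 to 29 relatives were lower. Of all genes, 15 to 6913 were then lower and 3 to 304 higher. Higher genes were 5.45% of all called on the deposited scale and 54.0% under median-of-ratios scaling.

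Ratios to the fibroblast marker sum changed sign for Fbln7 (-0.57), Sparc (-0.38), Thbs1 (-0.19) and Thbs4 (-0.086) without the collagens, for Fbln1 without LrpprcWT replicate 2 (0.033) or LrpprcP27A replicate 2 (0.049), with a range from -0.17 to 0.049 over the libraries left out, and for Thbs1 without LrpprcWT replicate 2 (-0.017), with a range from -0.017 to 1.08.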
